A study of Mus musculus and Homo sapiens with 4 samples.

Results

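ERG, the protease gene TMPRSS2 and 8 other ETS genes (ETV1, ETV4, ETV5, FLI1, SPDEF, EHF, ELF3 and ETS2) were followed through RNA libraries labelled as VCaP prostate cancer cells. The 10 genes were chosen by name, as entries whose symbol field holds one of them, and each stood on 1 of the 25932 entries of the VCaP libraries. Of these genes, 9 belong to the ETS family, which has 28 genes in the list used here. VCaP is an established human prostate cancer line, and the study describes VCaP ERα as this line made to overexpress oestrogen receptor alpha (ERα). Some values of the library labelled VCaP go against its label, as given below. By the labels, VCaP cells of passages 5 to 6 and VCaP ERα cells of passages 4 to 5 gave 1 library each. The RNA was depleted of its ribosomal fraction, and the strand of each read was preserved. The rest of the series is a pair of mouse embryonic fibroblast libraries, wild type and NEAT1 knockout, from cells of passages 2 to 3. No hormone treatment is given for these libraries in the labels, and both cultures were grown in medium with serum. How the ERα construct was selected, and whether the line is 1 clone, is not stated in the labels. The study describes the overexpression as stable.

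ETS proteins are transcription factors that share a DNA-binding domain recognising a GGAA core. In prostate cancer the best known event of the family is a rearrangement on chromosome 21 that joins the androgen-driven start of TMPRSS2 to ERG, so that the prostate epithelium makes a factor otherwise found in endothelial and blood cells. VCaP cells are known to carry this fusion. ETV1, ETV4 and ETV5 (the PEA3 subfamily) are rarer partners in such fusions, FLI1 is the closest relative of ERG, and SPDEF, EHF and ELF3 are ETS factors of normal epithelia. ERα is of interest here because oestrogen signalling has been linked to the TMPRSS2-ERG fusion, and the libraries were made to find genes that differ when ERα is overexpressed.

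Values are RPKM, in which the reads of an entry are scaled by its length and by the library size, so that levels can be compared between genes per length. With 1 library per condition no difference has a replicate check, no spread is known and no test was made. The difference between libraries is given as a log2 ratio, with 1 RPKM added to the values of both libraries and VCaP ERα as the numerator, which understates the change of low values. A log2 ratio above 2 or below -2 was taken as a large difference. In the middle of the 9754 entries that reached 1 RPKM in each of the libraries was a log2 ratio of -0.59, their median. Values centred on this median are given where they matter, and they are higher than the uncentred ones by that amount.

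ESR1, the gene of ERα, had 15.7 RPKM in the library labelled VCaP against 209 RPKM in VCaP ERα, the direction of the labels. Markers of the prostate luminal lineage went against the label VCaP. All 10 genes of that marker list (ACPP, KLK2 and STEAP2 among the highest) had log2 ratios above 2, and their summed level was 12.1 RPKM in the library labelled VCaP against 2010 RPKM in VCaP ERα. KLK4 was listed at 0 in the former. Of all entries 2.27% had a log2 ratio above 2 and 6.56% had one below -2. The shares were 4.21% and 12.2% of entries with at least 1 RPKM in at least 1 library. The summed level of 10 luminal breast markers was 1735 RPKM in the library labelled VCaP, mostly TFF1 (1596 RPKM), and 26.7 RPKM in VCaP ERα. Of these 10 markers 7 were lower and 3 higher in VCaP ERα, 3 had a log2 ratio below -2, 1 had one above 2 (TBX3, 2.64 and 14.4 RPKM), and 4 were below 1 RPKM in both libraries. That of 6 basal epithelial markers was 52.2 RPKM and 7.54 RPKM, in the same order, led by KRT17 (38.9 and 0.774 RPKM), with KRT14 listed at 0 in the library labelled VCaP. Of these 6 markers 3 were lower, all with a log2 ratio below -2, and 3 were higher in VCaP ERα (ITGA6, KRT14 and KRT5). That of 8 fibroblast markers was 1.12 and 2.68 RPKM, led by COL1A1 (0.805 and 1.18 RPKM). Their part in the differences below was not tested, and ERα overexpression cannot be told apart from any other difference between the cultures. In such bulk RNA, fewer cells of a type and less RNA per cell cannot be told apart either. The library is therefore named by its label throughout.

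Of the 10 genes, 3 had a log2 ratio above 2 (ERG, TMPRSS2 and EHF), against 2.27% of all entries and 4.21% of entries with at least 1 RPKM in at least 1 library. In the other direction 2 of the 10 had a log2 ratio below -2 (ELF3 and ETS2), against 6.56% of all entries and 12.2% of those with at least 1 RPKM in at least 1 library. The other 5 genes lay between these limits. The 10 genes were chosen with earlier results of these data known, so their counts beside these shares are description only. The median log2 ratio of the 10 genes was 0.21. It was 0 over all entries and -0.50 over entries with at least 1 RPKM in at least 1 library. Of the 10 genes 7 reached 1 RPKM in at least 1 library. ETV1, ETV4 and FLI1 did not. The 10 genes therefore did not move as 1 group, as the plot of their levels shows.

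**Figure D1:**
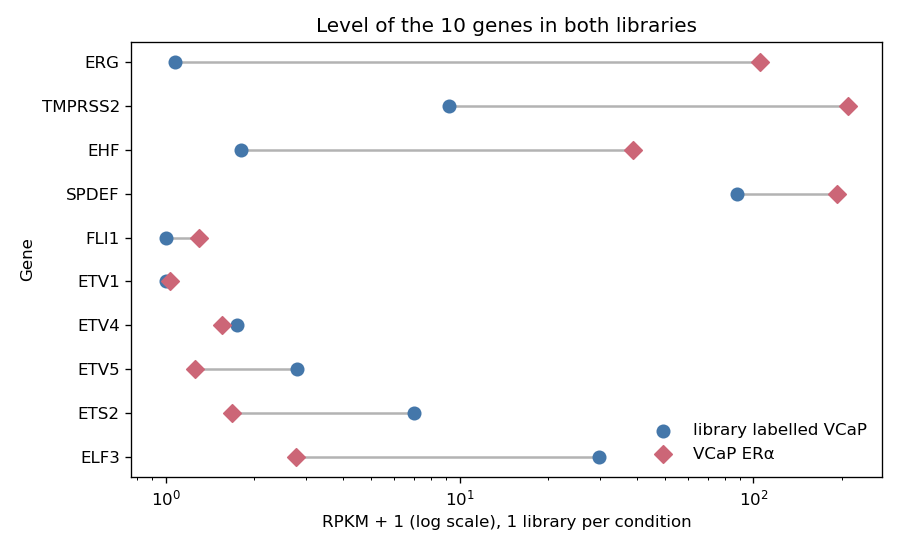
Level of each of the 10 genes as RPKM plus 1 on a log axis, with a circle for the library labelled VCaP and a diamond for VCaP ERα, 1 library each and no error bars. ERG, TMPRSS2 and EHF lie far to the right in VCaP ERα, SPDEF is high in both, and ELF3 and ETS2 lie further to the right in the library labelled VCaP.

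ERG, the factor brought under the control of TMPRSS2 in prostate tumours, had 0.0764 RPKM in the library labelled VCaP against 104 RPKM in VCaP ERα. By level it ranked 15755 of the 25932 entries in the former and 257 in the latter. Its log2 ratio was 6.61 (7.20 after centring), which ranked 13 of all entries. A value near 0 in a library of a line known for its ERG fusion goes against the label. The ERG entry (chromosome 21, 38661053 to 38955488 in the hg18 coordinates of the files, which are used throughout) pools 9 known-gene transcripts into 1 value, so fused and unfused transcripts and single exons cannot be told apart. The entries nearest to ERG in the plane of log2(RPKM + 1) values of the 2 libraries, among 25932 entries, were CO9 (distance 0.14), SNURF (0.22) and ROCK1 (0.23). All 3 were at 0.150 RPKM or lower in the library labelled VCaP and between 89.0 and 97.2 RPKM in VCaP ERα.

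TMPRSS2, a type II transmembrane serine protease of luminal cells that responds to androgens, had 8.18 RPKM in the library labelled VCaP against 208 RPKM in VCaP ERα, a ratio of 25.5. Its log2 ratio was 4.51 (5.10 after centring), rank 61 of all entries. Unlike ERG, TMPRSS2 was thus well above 1 RPKM in both libraries, at rank 5559 and rank 112 by level. Its entry (chromosome 21, 41758351 to 41824913) pools 3 known-gene transcripts. STARD3NL, SMS and AMD1 were the entries nearest to it in the same plane, at distances of 0.17, 0.19 and 0.57.

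ERG has 2 relatives in its subfamily. FLI1 (chromosome 11, 128069199 to 128187521), which is fused to EWSR1 in Ewing sarcoma, was listed at 0 in the library labelled VCaP and had 0.298 RPKM in VCaP ERα. FEV, a factor of serotonin neurons, was listed at 0 and had 0.798 RPKM. Neither reached 1 RPKM, so of this subfamily only ERG was at a substantial level, and in VCaP ERα alone. ERG and FLI1 are also factors of endothelial cells. The summed level of 10 endothelial markers was 12.7 RPKM in the library labelled VCaP against 5.08 RPKM in VCaP ERα. EGFL7 was the only one of them above 1 RPKM (11.2 and 2.39 RPKM), VWF had 0.708 and 0.521 RPKM, the defining marker PECAM1 had 0.0839 and 0.254 RPKM, and TEK, TIE1, CLDN5 and ROBO4 were listed at 0 in the library labelled VCaP. Of 8 blood cell markers 2 reached 1 RPKM in either library, LCP1 and CORO1A (2.84 and 0.138 RPKM). LCP1, an actin-bundling protein of leukocytes that many carcinoma lines also make, had 3.27 RPKM in the library labelled VCaP against 66.0 RPKM in VCaP ERα. PTPRC, the pan-leukocyte CD45, had 0.0142 RPKM in the former and was listed at 0 in the latter.

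The PEA3 genes, which are activated downstream of RAS and ERK and can replace ERG as fusion partners, were low in both libraries. ETV1 (chromosome 7, 13897381 to 13997399) was listed at 0 in the library labelled VCaP and had 0.0354 RPKM in VCaP ERα. ETV4 (chromosome 17, 38960737 to 38979288) had 0.752 RPKM and 0.561 RPKM, in the same order, with a log2 ratio of -0.17 that became 0.42 after centring. ETV5 (chromosome 3, 187246804 to 187309571) had 1.81 RPKM and 0.255 RPKM, a log2 ratio of -1.16. The summed level of the 3 genes was 2.56 RPKM in the library labelled VCaP against 0.85 RPKM in VCaP ERα. No member of this subfamily was therefore near the level of ERG in VCaP ERα.

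The epithelial ETS factors differed among themselves. SPDEF (chromosome 6, 34613558 to 34632069), a factor of luminal prostate, breast and goblet cells, was the highest ETS gene in both libraries, with 87.0 RPKM in the library labelled VCaP against 192 RPKM in VCaP ERα. Its ratio was 2.21 and its log2 ratio 1.13 (1.72 after centring). EHF (chromosome 11, 34599244 to 34639657) had 0.801 RPKM in the library labelled VCaP against 38.0 RPKM in VCaP ERα, with a log2 ratio of 4.43, rank 63 of all entries. ELF3 (chromosome 1, 200243696 to 200252938), the member of the same ESE subfamily that is typical of simple epithelia, went the other way. It had 28.7 RPKM in the library labelled VCaP against 1.78 RPKM in VCaP ERα, 16.1 times lower, with a log2 ratio of -3.42 that was the lowest of the 10 genes. The entries nearest to ELF3 were RBM38, LYPD3 and RNF113A, at distances from 0.024 to 0.082. ELF5, a factor of mammary alveolar cells, had 0.574 and 0.874 RPKM. The sum of the 3 ESE genes was 30.1 RPKM in the library labelled VCaP against 40.6 RPKM in VCaP ERα, and ELF3 made up most of it in the former and EHF in the latter.

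ETS2 (chromosome 21, 39099101 to 39118748), a nuclear effector of RAS-MAPK signalling, had 5.98 RPKM in the library labelled VCaP against 0.689 RPKM in VCaP ERα. Its log2 ratio of -2.05 lay just past the limit, and it was -1.46 after centring and -1.91 after quantile normalization. Its relative ETS1 was listed at 0 in the library labelled VCaP and had 0.555 RPKM in VCaP ERα. Both founders of the family were thus under 1 RPKM in VCaP ERα.

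Summed over the 28 ETS genes, the libraries held 252 RPKM (labelled VCaP) and 391 RPKM (VCaP ERα). The makeup of this sum differed. In the library labelled VCaP the leading genes were SPDEF with 34.5% of the sum, ELF1 with 13.3%, ELF4 with 12.5% and ELF3 with 11.4%. In VCaP ERα SPDEF had 49.1%, ERG 26.6% and EHF 9.71%, and the next gene, ELK4, had 4.64%. ERG took 0.0303% in the library labelled VCaP. The order of genes is that of single libraries, and which neighbours in it differ beyond the spread between cultures is unknown.

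**Figure D2:**
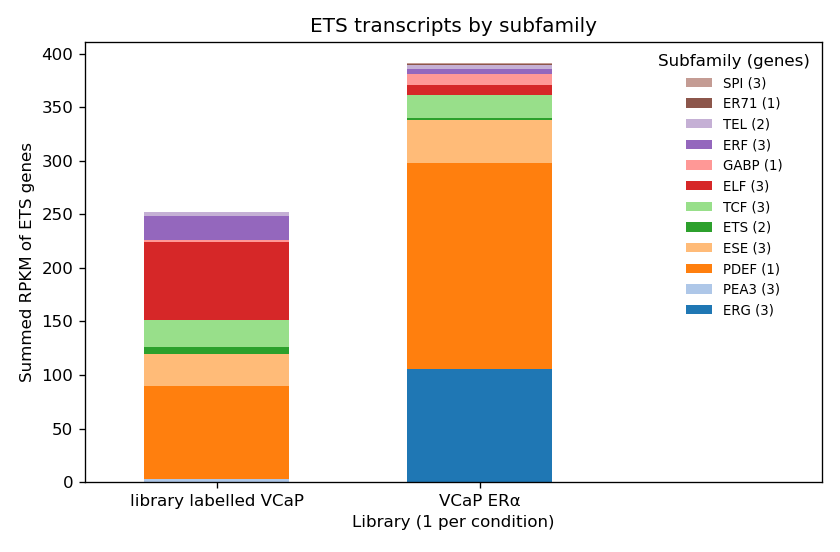
Summed RPKM of the ETS genes of each subfamily, stacked, for the library labelled VCaP and for VCaP ERα, with the number of genes in brackets and no error bars because each bar is 1 library. The ERG segment is 105 RPKM in VCaP ERα and 0.0764 RPKM in the library labelled VCaP, while the ELF segment is 9.54 and 72.9 RPKM.

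Outside the 10 genes, 19 ETS genes remain, of which 10 reached 1 RPKM in at least 1 library. None of the 19 had a log2 ratio above 2, and 3 had one below -2 (ELF4, ELF1 and ERF), a count that was 1 after centring. Without centring, 2.27% of all entries were above 2 and 6.56% below -2. The shares were 4.21% and 12.2% of entries with at least 1 RPKM in at least 1 library. ELF4, a factor of lymphocytes and interferon responses, had 31.6 RPKM in the library labelled VCaP against 0.305 RPKM in VCaP ERα, with a log2 ratio of -4.64 that was lower than that of any of the 10 genes. ELF1, a broadly expressed relative, had 33.5 and 4.79 RPKM (log2 ratio -2.58), and ELF2 had 7.76 and 4.45 RPKM (-0.69, or 0.073 after quantile normalization). ERF, a repressor that ERK phosphorylation keeps out of the nucleus, had 16.9 and 2.18 RPKM (-2.49). The related repressor ETV3 had 5.11 and 1.93 RPKM (-1.06). ETV6, a repressor of the TEL group, had 3.75 and 3.15 RPKM, and its log2 ratio of -0.20 became positive after centring and after quantile normalization.

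GABPA, which drives genes of basic cell functions together with its partner GABPB1, had 1.97 RPKM in the library labelled VCaP against 9.66 RPKM in VCaP ERα. Its log2 ratio of 1.84 was the highest of the 19, and it passed 2 after centring (2.43). The ternary complex factors, which bind with serum response factor, were less far apart. ELK4 had 16.7 and 18.2 RPKM (log2 ratio 0.11), ELK1 had 6.04 and 2.68 RPKM (-0.94), and ELK3 had 3.06 and 0.932 RPKM (-1.07). The other 9 of the 19, among them the myeloid and lymphoid factors SPI1, SPIB and SPIC, were below 1 RPKM in both libraries. Over all 28 ETS genes this held for 12. SPIC was the only one of the 28 listed at 0 in VCaP ERα, whereas 8 of the 28 were listed at 0 in the library labelled VCaP. More entries were listed at 0 in that library in general (8757 against 3607).

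**Figure D3:**
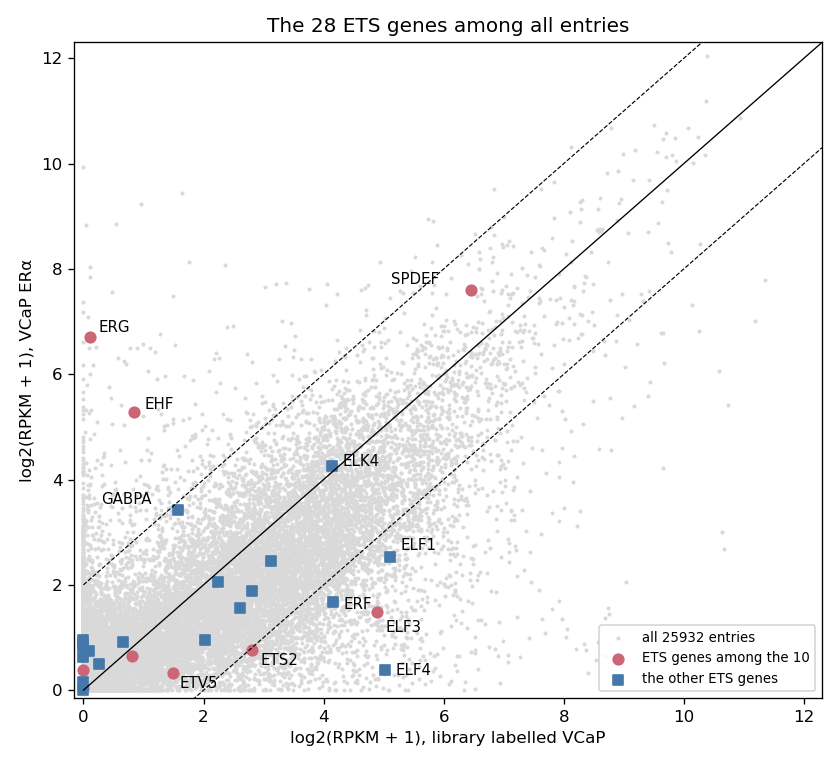
Each entry as log2(RPKM + 1) for the library labelled VCaP (horizontal) and for VCaP ERα (vertical), with all 25932 entries in grey and the 28 ETS genes in colour. The solid line marks equal values and the dashed lines a log2 ratio of 2 and -2; ERG (6.61) and EHF (4.43) lie above the upper dashed line, and ELF4, ELF3, ELF1, ERF and ETS2 below the lower one.

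ERG, ETS2 and TMPRSS2 lie on 1 stretch of chromosome 21. From the lower end of ERG to the upper end of TMPRSS2 the files span 3.16 Mb and hold 25 entries, 23 of them between the 2 genes. ETS2 begins 144 kb beyond ERG. The deletion form of the TMPRSS2-ERG fusion removes the sequence between the 2 genes from 1 chromosome copy, which makes this stretch of interest. Whether the cells used here carry that form was not tested. Of the 23 entries between them 13 had at least 1 RPKM in at least 1 library, with a median log2 ratio of -0.46, 6 higher and 7 lower in VCaP ERα. The same median was 0.43 over 158 such entries of the rest of chromosome 21 and -0.50 over 13954 of the whole table.

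Within the stretch 1 of the 23 entries between the genes had a log2 ratio above 2 and 3 had one below -2. The shares over all entries were 2.27% and 6.56%, and on the rest of chromosome 21 the counts were 10 and 11 of 281 entries. FAM3B, a secreted cytokine-like protein, was listed at 0 in the library labelled VCaP and had 9.95 RPKM in VCaP ERα (3.45). It lies close to TMPRSS2, with MX2 and MX1 between them. These interferon-induced GTPases, named for their position after their values had been seen, were under 1 RPKM in both libraries, with 0.157 and 0.699 RPKM for MX2 and 0.277 and 0.444 RPKM for MX1. High values of TMPRSS2 and FAM3B were thus not shared by the genes between them. On the lower side were ETS2, DSCAM and an entry with the symbols AF401033, AF401035 and BC071816. DSCAM, a neural adhesion molecule, had 8.39 RPKM in the library labelled VCaP against 0.505 RPKM in VCaP ERα (-2.64). The AF401033 entry had 79.6 RPKM in the former and was listed at 0 in the latter (-6.33). HMGN1, a nucleosome-binding protein in the middle of the stretch that was named after its values had been seen, stood on 2 entries with 121 and 58.7 RPKM in the library labelled VCaP against 127 and 59.9 RPKM in VCaP ERα. None of the 23 entries between had a log2 ratio as high as that of ERG or TMPRSS2.

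**Figure D4:**
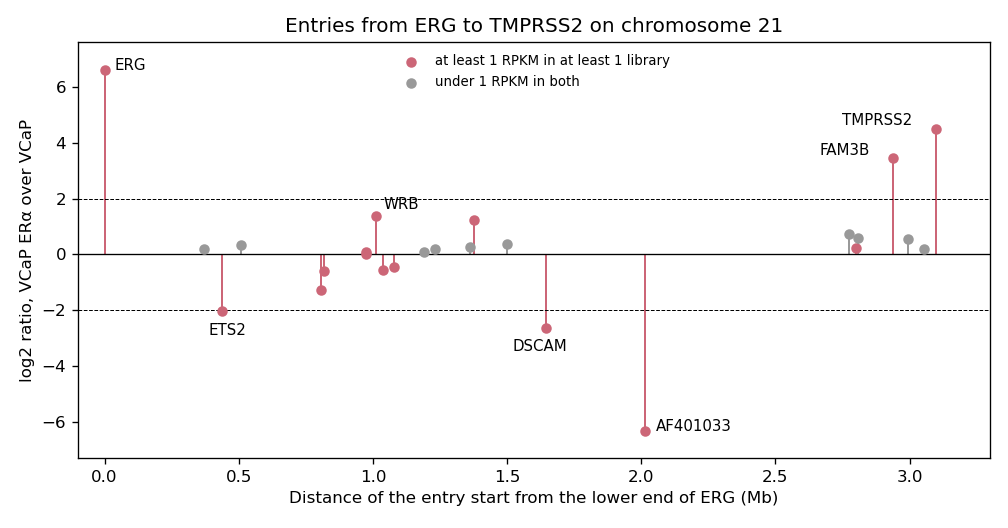
The log2 ratio (VCaP ERα over VCaP) of the 25 entries from ERG to TMPRSS2 against the distance of the start of the entry from the lower end of ERG in Mb. Red entries have at least 1 RPKM in at least 1 library and grey ones less; ERG (6.61), FAM3B (3.45) and TMPRSS2 (4.51) lie above the dashed line at 2, and ETS2, DSCAM and AF401033 below that at -2.

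Neighbouring genes were also set side by side elsewhere. ETS1 and FLI1, 107 kb apart on chromosome 11, were both listed at 0 in the library labelled VCaP and both below 1 RPKM in VCaP ERα (log2 ratios 0.64 and 0.38). EHF and ELF5 are 107 kb apart on chromosome 11, and EHF differed by a log2 ratio of 4.43 while ELF5 differed by 0.25. SLC45A3, a prostate membrane transporter whose transcripts can run on into ELK4, is 25.0 kb from ELK4 on chromosome 1. SLC45A3 had 1.81 RPKM in the library labelled VCaP against 179 RPKM in VCaP ERα, whereas ELK4 differed by 0.11 on the log2 scale.

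TMPRSS2 is 1 of 9 genes on a list of 5′ partners of ETS fusions in prostate cancer. Of these 5 had a log2 ratio above 2 and none below -2, and the median was 2.96. All 9 reached 1 RPKM in at least 1 library. Of all such entries 4.21% were above 2 and 12.2% below -2, with a median of -0.50. KLK2, a kallikrein driven by androgen, had 0.0264 RPKM in the library labelled VCaP against 452 RPKM in VCaP ERα (8.79). SLC45A3 had a log2 ratio of 6.00. NDRG1, a stress- and androgen-responsive protein, had 4.61 and 119 RPKM (4.42), and ACSL3, which activates fatty acids, had 25.7 and 207 RPKM (2.96). HERPUD1, an endoplasmic reticulum stress protein, had 10.9 and 36.8 RPKM (1.66, or 2.25 after centring). CANT1, a nucleotidase, had 54.6 and 93.1 RPKM (0.76), and the RNA-binding proteins HNRNPA2B1 and DDX5, found in most tissues, had 27.1 and 35.1 RPKM (0.36) and 361 and 120 RPKM (-1.57). The list overlaps the prostate luminal markers in KLK2 and SLC45A3.

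Of the receptors and cofactors known to act at TMPRSS2, ESR1 and HOXB13 had log2 ratios above 2. HOXB13, the homeobox factor of the prostate, had 0.0479 RPKM in the library labelled VCaP against 54.6 RPKM in VCaP ERα (5.73), and it is also on the prostate luminal list. ESR1 had a log2 ratio of 3.65. The pioneer factor FOXA1 had 139 and 127 RPKM, a log2 ratio of -0.13 that was 0.46 after centring, and GATA2 had 8.01 and 11.02 RPKM (0.42). FOXA1 was therefore high in both libraries, as SPDEF was.

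TMPRSS2 was also set beside its own enzyme family. Of 18 type II transmembrane serine proteases 6 reached 1 RPKM in either library, and 12 were below it in both. Besides TMPRSS2, 1 had a log2 ratio above 2 and 2 had one below -2, against 2.27% and 6.56% of all entries. HPN (hepsin), a protease raised in prostate cancer, had 0.318 RPKM in the library labelled VCaP against 6.28 RPKM in VCaP ERα (2.47). TMPRSS4 had 21.6 and 1.10 RPKM (-3.43) and TMPRSS13 had 5.43 and 0.486 RPKM (-2.11). ST14 (matriptase), a protease of most epithelia, had 33.1 and 15.98 RPKM (-1.01), and TMPRSS3 had 0.560 and 1.10 RPKM (0.43). The highest protease of the family was thus ST14 in the library labelled VCaP and TMPRSS2 in VCaP ERα. Of their Kunitz-type inhibitors, SPINT1 had 69.5 and 8.92 RPKM (-2.83) and SPINT2 had 300.0 and 102.0 RPKM (-1.55).

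A list of 11 genes known to be raised in ERG-positive prostate tumours was mixed. Of these 3 had a log2 ratio above 2, 1 had one below -2, and the median was 0.29. Above 2 were 2.27% of all entries and 4.21% of those with at least 1 RPKM in at least 1 library. Below -2 were 6.56% and 12.2%, and the median of the latter entries was -0.50. CRISP3, a secreted cysteine-rich protein, had 0.950 RPKM in the library labelled VCaP against 603 RPKM in VCaP ERα (8.28). PLA1A, a phospholipase, was listed at 0 and had 21.97 RPKM (4.52), and TDRD1, a germline Tudor-domain protein, had 3.21 and 26.4 RPKM (2.71). CXCR4, a chemokine receptor, was lower in VCaP ERα, with 7.32 and 0.851 RPKM (-2.17, or -1.58 after centring). The log2 ratios of the other 7 lay between -0.97 for FZD4, a WNT receptor, and 0.83 for the calcium channel CACNA1D. SOX9 had 10.3 and 12.8 RPKM and CACNA1D had 0.567 and 1.78 RPKM. FZD4 had 9.15 and 4.18 RPKM. KCNS3 with 7.33 and 5.54 RPKM and HDAC1 with 20.9 and 14.6 RPKM were lower in VCaP ERα, and both turned higher after centring. ARHGDIB (6.25 and 3.38 RPKM) turned higher and PLAU (0.0827 and 0.396 RPKM) turned lower after quantile normalization. Some of these genes were thus higher in VCaP ERα, as ERG was, and others were not.

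Of 6 genes that set the amount or activity of ETS proteins, 1 had a log2 ratio below -2 and 0 had one above 2. SPOP, the ubiquitin ligase adaptor that targets ERG, had 27.7 and 28.9 RPKM (0.059), and USP9X, which removes ubiquitin from ERG, had 11.2 and 10.5 RPKM (-0.092, or 0.50 after centring). TRIM25, another ubiquitin ligase for ERG, had 39.6 RPKM in the library labelled VCaP against 3.97 RPKM in VCaP ERα (-3.03) and was the only one of the 6 past the limit. RFWD2 (COP1) and DET1, which mark PEA3 proteins for degradation, had log2 ratios of -1.56 and -0.40 (0.19 for DET1 after centring). CIC, a repressor of PEA3 genes, had 4.96 and 1.73 RPKM (-1.13). The median of the 6 was -0.77, against -0.50 over all entries with at least 1 RPKM in at least 1 library. Of those entries 12.2% were below -2. The median of the 6 was -0.18 after centring and -0.12 after quantile normalization, with 3 of the 6 higher in VCaP ERα after either.

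Genes switched on by ERK, the pathway upstream of ETS2 and the PEA3 genes, were mostly lower in VCaP ERα. Of 12 genes 10 were lower and 2 higher, with 4 higher after centring and 1 after quantile normalization, and 3 had a log2 ratio below -2. Lower values also prevailed in the whole table, where 8934 of the 13954 entries with at least 1 RPKM in either library were lower in VCaP ERα and 12.2% had a log2 ratio below -2. Of the 9 ERK genes that reached 1 RPKM, 8 were lower. DUSP4, an ERK phosphatase, had 35.1 RPKM in the library labelled VCaP against 0.229 RPKM in VCaP ERα (-4.88). IER3 had 23.1 and 0.314 RPKM (-4.20) and PHLDA1 had 7.51 and 0.132 RPKM (-2.91). DUSP6, SPRED2, EGR1, DUSP5 and SPRY1 had log2 ratios from -1.66 to -0.86. SPRY4, SPRED1 and SPRY2 were below 1 RPKM in both libraries. FOSL1, a subunit of AP-1, went the other way with 0.436 and 2.48 RPKM (1.28). The median log2 ratio of the 12 genes was -1.16, against -0.50 over all entries with at least 1 RPKM in at least 1 library.

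**Figure D5:**
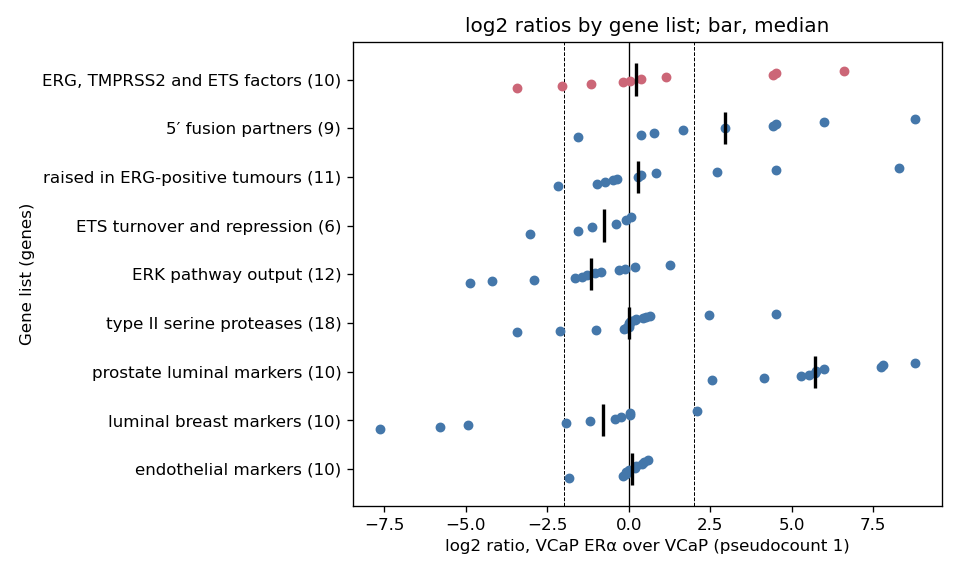
The log2 ratio (VCaP ERα over VCaP, pseudocount 1) of each gene of 9 lists, with the number of genes in brackets, dashed lines at 2 and -2 and a black bar at the median of the list. The medians are 0.21 for the 10 genes, 2.96 for the 5′ fusion partners and 5.72 for the prostate luminal markers. They are -1.16 for ERK pathway output and 0.098 for the endothelial markers. Of the 10 endothelial markers 9 are below 1 RPKM in both libraries, where the pseudocount keeps log2 ratios small, and EGFL7 is at -1.84.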

How the data were processed

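Human cells labelled VCaP and VCaP ERα gave 1 RNA library each. The authors computed and deposited RPKM values, 1 per entry, with no normalization between libraries stated. The submitters' processing notes name CASAVA 1.8 and the builds hg18 and mm10; the human coordinates are printed as in the files, and the aligner and the counting tool are not given in the sources used here. The depth is unknown, so no interval or floor was computed.

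The 10 genes and the gene lists were chosen with earlier results of these data known. A gene was represented by the entry of highest mean RPKM, and outside the 10 genes by entries that give it as the main symbol where a symbol stood on several. log2 ratios used a pseudocount of 1, and no test was made because each condition has 1 library. Named were all 10 genes, ETS genes and proteases of at least 1 RPKM, the genes of the pathway lists (except some not reported here), the highest markers, chromosome 21 entries past 2 or -2 and the 3 entries nearest in pattern. Alternatives were a pseudocount of 0.1, median centring, quantile normalization, a minimum of 1 RPKM and other entries of a symbol. The scripts were tested on simulated data. The tools were pandas 2.3.3 and numpy 2.4.6 under Python 3.11.15, with figures drawn in matplotlib 3.10.9. The sequences of the human genes were not used here.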

Additional observations from a re-analysis of the deposited data

How the results depend on the processing

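With no replicates, a value was taken as moved when a log2 ratio shifted by at least 0.58, which is 1.5 times on the linear scale, or a count changed by more than 1.5 times. With a pseudocount of 0.1 the log2 ratios were 9.20 for ERG, 5.40 for EHF, 1.99 for FLI1, -2.43 for ETV5 and -2.94 for ETS2, 8 ETS genes were above 2, and 4238 entries were above 2 and 2958 below -2. Centring on the median gave 7.20 for ERG, 5.10 for TMPRSS2, 5.02 for EHF, 1.72 for SPDEF, 0.97 for FLI1, 0.64 for ETV1, -0.57 for ETV5, -1.46 for ETS2 and -2.83 for ELF3, and turned ETV4 to 0.42. It left 1 of the 10 genes and 2 ETS genes below -2, with 1238 entries above 2 and 868 below -2. Quantile normalization turned ETV1 to -0.0035 and likewise left 1 of the 10 genes and 2 ETS genes below -2, with 1003 entries above 2 and 997 below -2. ERG, TMPRSS2 and EHF stayed above 2 and ELF3 below -2 under each of these settings. Keeping entries that reach 1 RPKM in either library dropped ETV1, ETV4 and FLI1 and moved none of the other values. The choice among entries of a symbol could not matter, since each of the 10 genes stood on 1 entry. No paired analysis was possible because each condition has 1 library. Without depth or replicates, values under 1 RPKM carry the least information.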

Other observations

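The mouse fibroblast libraries of the same series, made from poly-A RNA of wild-type and NEAT1 knockout embryos (1 library each), hold entries for all 10 mouse orthologs. Erg stood at 0.705 RPKM (wild type) and 1.08 RPKM (knockout), Fli1 had 1.56 and 1.51 RPKM, Etv4 had 9.16 and 8.21 RPKM, and Etv5 had 8.33 and 7.38 RPKM. Ets2 stood at 11.2 and 19.3 RPKM, a log2 ratio of 0.74, the largest of the 10 in size. Tmprss2 was listed at 0 in both libraries, and Spdef, Ehf and Elf3 were under 0.1 RPKM in both. Of the 26 orthologs of ETS genes and TMPRSS2 that were found, 0 had a log2 ratio above 2 or below -2, against 52 and 4 of all 23329 mouse entries. The values of both species come from different kinds of libraries and were not compared.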
